A study of Mus musculus with 6 samples.

Results

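Tanycytes are elongated glial cells that line the floor and the lower walls of the third ventricle and send a process into the arcuate nucleus or the median eminence. They take up and activate thyroid hormone, sense nutrients, form part of the barrier between blood, cerebrospinal fluid and brain tissue, and keep features of the radial glia of the embryo. The genes described here are 5 that are commonly used to mark them: Rax, a homeobox transcription factor that tanycytes need for their identity, Gpr50, an orphan receptor related to the melatonin receptors, Nes and Vim, which encode the intermediate filament proteins nestin and vimentin, and Crym, which encodes mu-crystallin, a cytosolic protein that binds thyroid hormone. They were chosen as a named list, and every array probe whose transcript accession maps to 1 of these genes was taken. This gave 5 probes of 39429, 1 per gene with 1 spot each, and all 5 genes were among the 22863 tested.

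Transcripts were measured on 6 single-colour arrays of hypothalamus from male C57BL/6J mice aged 16 weeks. Arrays came in 3 groups of 2: Trsp-RIPKO (floxed Trsp alleles with RIP-Cre), Trsp-Ins1KO (floxed Trsp alleles with Ins1-Cre) and TrspFF (floxed alleles and no Cre). All mice therefore carry the floxed alleles, and no group with a Cre but without them is among these arrays. RIP-Cre uses a promoter of the rat insulin gene and is active in beta cells and in some hypothalamic cells, while Ins1-Cre is active mainly in beta cells. Neither driver is directed at tanycytes. Trsp encodes the transfer RNA for selenocysteine, on which all selenoproteins depend, among them the deiodinase of tanycytes. By its title the series concerns oxidative stress in the hypothalamus and resistance to leptin and insulin. Whether the arrays of a group come from separate animals is not stated, so p-values measure only the spread between arrays, which may be technical. Because whole tissue was used, fewer tanycytes and less transcript per tanycyte cannot be told apart.

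Facts of the whole set bear on all values below. The scanner files and the authors' table of processed values swap the names of the knockouts: each table column named for 1 knockout matched an array of the other (r of at least 0.99997). Names here follow the scanner files, and with the names of the table every value of 1 knockout belongs to the other. Both TrspFF arrays share a slide and a scan and the 4 knockout arrays share another, so that slide and genotype cannot be told apart in a comparison with TrspFF. Between the knockouts this does not apply. The 75th percentile of the signal lay between 1391 and 2137 units of intensity, the share of probes called well above background ranged from 68.9% to 72.0%, and the small number of arrays limits the precision. Markers of hypothalamic neurons were present on every array (at least 11 of 12 tested). Markers of cortex, hippocampus and amygdala were present too: all 8 were well above background on each array except replicate 2 of Trsp-Ins1KO, which had 6. Choroid plexus markers averaged -2.11 on that array and between 0.18 and 1.05 on the other 5, so the values of the 5 genes are also given without it.

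Levels are log2 of the processed signal minus the 75th percentile of the array, so 0 equals that percentile. Signals of different probes are not on a common scale, and each gene is compared only with itself. Differences were tested with limma on all tested genes, with Benjamini-Hochberg adjustment. In none of the 3 comparisons did a tanycyte gene pass an adjusted p of 0.05: the count was 0 of 5 in Trsp-RIPKO against TrspFF, where 1.66% of all tested genes passed, 0 of 5 in Trsp-Ins1KO against TrspFF (1.82% of all genes) and 0 of 5 in Trsp-RIPKO against Trsp-Ins1KO (0.0175%). Unadjusted p-values under 0.05 were reached by 1, 2 and 3 of the 5 genes in these comparisons, against 23.9%, 26.0% and 18.4% of all genes. The last 2 counts include Gpr50, which passed the filter on faint probes only through Trsp-Ins1KO, where it is highest, so they support nothing about the 5 genes. The median difference of the 5 genes was 0.11, -0.14 and 0.064, beside medians over all genes of -0.014, 0.024 and -0.048. The arrays of the 2 groups did not overlap for 1 of 5 genes in Trsp-RIPKO against TrspFF (58.3% of all genes), for 5 of 5 in Trsp-Ins1KO against TrspFF (58.2%) and for 4 of 5 in Trsp-RIPKO against Trsp-Ins1KO (58.6%). The last 2 of these counts also include Gpr50, so they too support nothing about the 5 genes. The levels of the 5 genes moved in different patterns over the arrays, which the following paragraphs describe gene by gene.

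**Figure D1:**
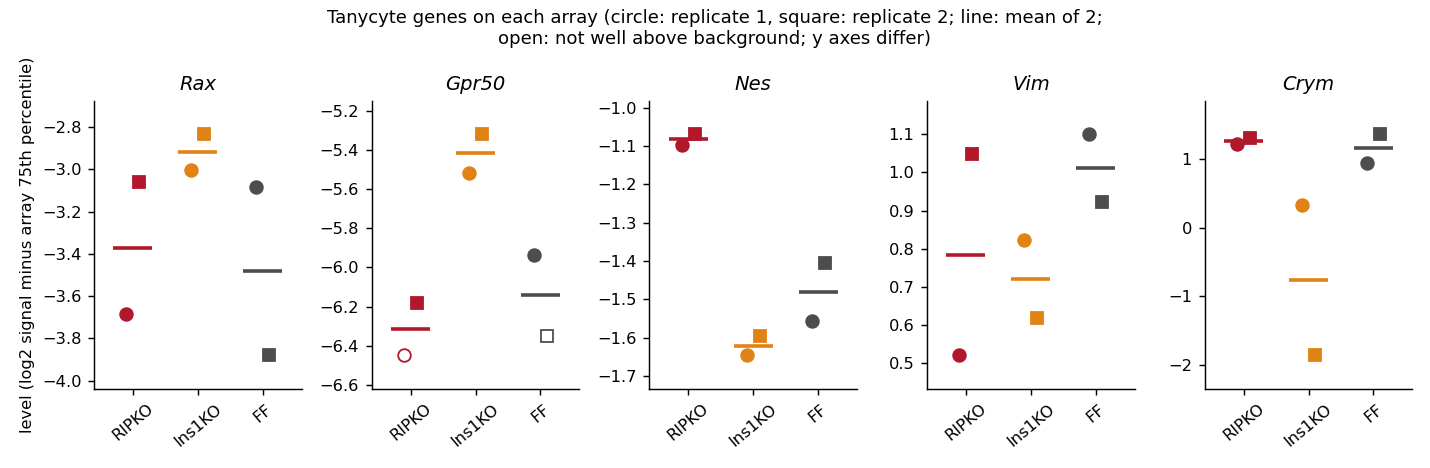
Level of each tanycyte gene (log2 signal minus the array's 75th percentile) on the 2 Trsp-RIPKO, 2 Trsp-Ins1KO and 2 TrspFF arrays, with a line at the mean of each group and open symbols where the probe was not well above background. Both Trsp-RIPKO arrays lie above the other 4 for Nes (as for 11.4% of tested genes). Both Trsp-Ins1KO arrays lie above the other 4 for Rax and Gpr50 (as for 18.3%) and below the other 4 for Crym (share not counted). The y axis differs between genes.

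Nes and Gpr50 are the genes with an entry in the promoter table for which both arrays of 1 knockout lay above the other 4, and their promoters are shown here for reference, as given by RefSeq on GRCm38.p6 (5′ to 3′ on the strand of the gene, 250 bases before to 50 after the start). Promoters were found for 3 of the 5 genes in the table used here, and that of Vim held no match to either motif described next. Capitals mark a match to TGACNNNGC, the core of the antioxidant response element bound by NRF2, searched on both strands.
Nes, chr3:87970843-87971142, plus strand: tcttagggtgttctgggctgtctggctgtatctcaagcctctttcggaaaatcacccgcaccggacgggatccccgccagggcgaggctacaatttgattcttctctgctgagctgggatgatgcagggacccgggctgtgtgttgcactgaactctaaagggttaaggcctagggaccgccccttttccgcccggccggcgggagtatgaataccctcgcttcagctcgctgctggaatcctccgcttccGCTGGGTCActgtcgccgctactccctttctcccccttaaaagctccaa
Gpr50, chrX:71663417-71663716, plus strand: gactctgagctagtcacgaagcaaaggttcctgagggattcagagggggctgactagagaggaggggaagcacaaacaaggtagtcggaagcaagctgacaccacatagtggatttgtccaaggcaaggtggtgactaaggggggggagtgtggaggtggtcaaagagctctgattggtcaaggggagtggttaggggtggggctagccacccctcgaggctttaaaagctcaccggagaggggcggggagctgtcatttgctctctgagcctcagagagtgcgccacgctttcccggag
The Nes promoter held 1 match and the Gpr50 promoter 0, where 12.4% of 32851 promoters of the same length hold the motif. The motif TAATTA, which homeodomain proteins of the paired type recognise, was in neither and is in 5.29% of promoters. A match is a run of letters and not a measured binding site.

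Rax, the transcription factor, had levels of -3.68 and -3.06 in Trsp-RIPKO, -3.00 and -2.83 in Trsp-Ins1KO, and -3.09 and -3.88 in TrspFF, and was well above background on all 6 arrays. The Trsp-Ins1KO arrays were the 2 highest, as they were for 18.3% of tested genes, and the arrays of the other groups overlapped each other. Group means were -3.37 ± 0.44, -2.92 ± 0.12 and -3.48 ± 0.56 (SD, n = 2 each, in the same order of groups). The gap between the TrspFF replicates was 0.80, larger than that of 93.3% of tested genes, and the gap in Trsp-RIPKO was 0.63 (95.4%). Trsp-RIPKO minus TrspFF was 0.11 (SE 0.34, 95% confidence interval -0.76 to 0.99, limma adjusted p = 0.859), and its sign turned without Trsp-RIPKO replicate 2 (-0.20) or TrspFF replicate 2 (-0.29). Trsp-Ins1KO minus TrspFF was 0.57 (SE 0.34, interval -0.31 to 1.44, limma adjusted p = 0.340), and was 0.17 without TrspFF replicate 2 and 0.96 without TrspFF replicate 1. Trsp-RIPKO minus Trsp-Ins1KO was -0.45 (SE 0.34, interval -1.33 to 0.42, limma adjusted p = 0.468), and -0.14 without Trsp-RIPKO replicate 1. Without Trsp-Ins1KO replicate 2 these last differences were 0.48 and -0.37. All 3 intervals hold 0, and they are too wide to tell a change of the size of the estimates from none.

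Genes of motile cilia, which mark the ependymal cells next to tanycytes on the ventricle wall, are given beside Rax. The mean level of 10 such genes was -1.82 and -1.01 in Trsp-RIPKO, -0.59 and -0.79 in Trsp-Ins1KO, and -0.75 and -1.34 in TrspFF. Trsp-RIPKO replicate 1 and TrspFF replicate 2 were the lowest arrays for the cilia genes and for Rax. The remaining arrays were ordered differently: TrspFF replicate 1 lay between the Trsp-Ins1KO arrays for the cilia genes and below both for Rax. None of the 10 passed the test. In the 3 comparisons 0, 0 and 1 of 10 had an unadjusted p under 0.05 (limma), against 23.9%, 26.0% and 18.4% of all genes. All 10 had negative differences in Trsp-RIPKO minus TrspFF (median -0.34), where Rax was at 0.11. All 10 had positive ones in Trsp-Ins1KO minus TrspFF (median 0.35). Their part in the result for Rax was not tested.

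Gpr50, the receptor, gave the faintest signal of the 5 probes. Its processed signal was 21.3 and 29.5 units in Trsp-RIPKO, 38.0 and 48.4 units in Trsp-Ins1KO, and 22.7 and 21.1 units in TrspFF. The scanner software called it well above background on both Trsp-Ins1KO arrays but on only 1 array in Trsp-RIPKO and 1 in TrspFF. The levels were -6.45 and -6.18 in Trsp-RIPKO, -5.52 and -5.32 in Trsp-Ins1KO, and -5.94 and -6.35 in TrspFF. Both Trsp-Ins1KO arrays lay above the other 4, as they did for 18.3% of tested genes, while Trsp-RIPKO and TrspFF overlapped.

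Gpr50 passed the filter on faint probes only through Trsp-Ins1KO, and 1 array of each other group was not well above background, so its differences are a description and no p is given for those with Trsp-Ins1KO. On the measured signals Trsp-Ins1KO minus TrspFF was 0.73 and Trsp-RIPKO minus Trsp-Ins1KO was -0.90, neither past the threshold. With median spot signals, normexp and an offset of 50, which were changed together, these differences were 0.20 and -0.25. Without Trsp-Ins1KO replicate 2 they were 0.63 and -0.80. Trsp-RIPKO minus TrspFF was -0.17, with a sign that turned under quantile normalization (0.046) and without TrspFF replicate 1 (0.033). Markers of hypothalamic neurons had a similar order over the arrays, with a mean level over 12 genes of 0.023 and -0.22 in Trsp-RIPKO, 0.57 and 0.59 in Trsp-Ins1KO, and 0.23 and -0.16 in TrspFF. Their part in the result for Gpr50 was not tested.

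Nes, which encodes nestin, showed the closest agreement between replicates of the 5 genes in both knockouts. The levels were -1.10 and -1.07 in Trsp-RIPKO, -1.65 and -1.60 in Trsp-Ins1KO, and -1.56 and -1.41 in TrspFF. The 3 groups did not overlap: Trsp-RIPKO was highest, TrspFF lay between, and Trsp-Ins1KO was lowest. Such an order, with each knockout on its own side of both TrspFF arrays, was found in 1.65% of tested genes, and both Trsp-RIPKO arrays lay above the other 4 in 11.4%. Group means were -1.08 ± 0.019 in Trsp-RIPKO, -1.62 ± 0.035 in Trsp-Ins1KO and -1.48 ± 0.11 in TrspFF (SD, n = 2 each).

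Trsp-RIPKO minus Trsp-Ins1KO was 0.54 for Nes (SE 0.091, interval 0.30 to 0.78), a 1.45-fold higher mean in Trsp-RIPKO, with an unadjusted p of 0.00218 and an adjusted p of 0.263 (limma). Both groups lie on the same slide. Leaving out each array in turn gave differences between 0.51 and 0.56, with adjusted p between 0.0870 and 0.597. Trsp-RIPKO minus TrspFF was 0.40 (SE 0.091, interval 0.16 to 0.64), a 1.32-fold higher mean, with an unadjusted p of 0.00775 and an adjusted p of 0.103 (limma). Trsp-Ins1KO minus TrspFF was -0.14 (SE 0.091, interval -0.38 to 0.096, limma adjusted p = 0.374), and was -0.0059 with normexp. It was -0.065 without TrspFF replicate 2, -0.22 without TrspFF replicate 1 and -0.17 without Trsp-Ins1KO replicate 2.

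Nestin is also made by endothelial cells and by pericytes, so their markers are given beside it. The mean level of 14 endothelial markers was -0.22 and -0.17 in Trsp-RIPKO, -0.94 and -0.80 in Trsp-Ins1KO, and -0.66 and -0.32 in TrspFF. Like Nes, this list had its 2 highest arrays in Trsp-RIPKO, its 2 lowest in Trsp-Ins1KO and TrspFF between them. In Trsp-RIPKO minus Trsp-Ins1KO the median of the 14 was 0.73 with 13 positive, and the examples with the smallest p were Tie1 at 1.61 (SE 0.24) and Cdh5, an adhesion protein of endothelial junctions, at 0.90 (SE 0.14), neither past the test (limma adjusted p = 0.263 for both). The 10 markers of pericytes and smooth muscle averaged -1.45 and -1.29 in Trsp-RIPKO, -1.91 and -2.06 in Trsp-Ins1KO, and -1.63 and -1.36 in TrspFF. All 14 endothelial markers and at least 9 of the 10 others were well above background on every array. Markers of radial glia and neural stem cells, with which Nes is also associated, had a median of 0.091 in the same comparison (7 of 12 positive, 0 past the test), and -0.068 with 5 positive without Trsp-Ins1KO replicate 2. Without Trsp-Ins1KO replicate 2 the endothelial median was 0.74 with 12 of 14 positive. The part of these vessel markers in the result for Nes was not tested.

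Vim, which encodes vimentin, had levels of 0.52 and 1.05 in Trsp-RIPKO, 0.82 and 0.62 in Trsp-Ins1KO, and 1.10 and 0.92 in TrspFF. The Trsp-Ins1KO arrays lay below both TrspFF arrays, and the Trsp-RIPKO arrays spanned nearly the whole range of the gene. Trsp-RIPKO minus TrspFF was -0.23 (SE 0.20, interval -0.76 to 0.30, limma adjusted p = 0.523) and turned to 0.036 without Trsp-RIPKO replicate 1. Trsp-Ins1KO minus TrspFF was -0.29 (SE 0.20, interval -0.82 to 0.24, limma adjusted p = 0.404), and -0.19 without Trsp-Ins1KO replicate 2. Trsp-RIPKO minus Trsp-Ins1KO was 0.064 (SE 0.20, interval -0.46 to 0.59, limma adjusted p = 0.871), and its sign turned without Trsp-RIPKO replicate 2 (-0.20) or Trsp-Ins1KO replicate 2 (-0.038). Nes and Vim proteins form filaments together, yet their probes did not follow the same order: Trsp-RIPKO replicate 1 was the second highest array for Nes and the lowest for Vim.

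Crym, which encodes mu-crystallin, had levels of 1.23 and 1.32 in Trsp-RIPKO, 0.34 and -1.87 in Trsp-Ins1KO, and 0.95 and 1.37 in TrspFF. Both Trsp-Ins1KO arrays were the lowest, but they differed from each other by 2.20, a larger gap than 99.3% of tested genes showed in that group. Of all tested genes, 58.2% did not overlap between Trsp-Ins1KO and TrspFF, and 58.6% did not between the knockouts. Trsp-Ins1KO minus TrspFF was -1.93 (SE 0.72, interval -3.80 to -0.054), with an unadjusted p of 0.0458 and an adjusted p of 0.185 (limma). Without Trsp-Ins1KO replicate 2 it was -0.83. Without Trsp-Ins1KO replicate 1, which leaves only replicate 2 in that group, it was -3.03. Trsp-RIPKO minus Trsp-Ins1KO was 2.04 (SE 0.72, interval 0.17 to 3.91, limma adjusted p = 0.264), 0.94 without Trsp-Ins1KO replicate 2 and 3.14 without Trsp-Ins1KO replicate 1. Trsp-RIPKO minus TrspFF was 0.11 (SE 0.72, limma adjusted p = 0.935), and -0.099 without TrspFF replicate 1.

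Crym is also expressed by neurons of cortex, hippocampus and striatum, and markers of those regions are given beside it. The 8 markers of cortex, hippocampus and amygdala averaged -0.84 and -0.79 in Trsp-RIPKO, -1.70 and -3.70 in Trsp-Ins1KO, and -1.99 and -1.17 in TrspFF. The lowest array for this list and for Crym was Trsp-Ins1KO replicate 2. Slc17a7, the vesicular glutamate transporter of cortical neurons, was at -0.026 and 0.019 in Trsp-RIPKO, -1.17 and -1.77 in Trsp-Ins1KO, and -0.88 and -0.34 in TrspFF. Choroid plexus markers, which averaged 0.44 and 0.64 in Trsp-RIPKO, 0.18 and -2.11 in Trsp-Ins1KO, and 1.05 and 0.52 in TrspFF, were lowest on the same array. Striatum markers followed another order: their mean was at or below -0.86 on all 4 knockout arrays, against -0.33 and 0.013 in TrspFF. In Trsp-RIPKO minus Trsp-Ins1KO the median of the 8 cortex markers was 2.16, and 0.89 without Trsp-Ins1KO replicate 2. In Trsp-Ins1KO minus TrspFF it was -0.92. Without Trsp-Ins1KO replicate 2 it was -0.067 with 4 of 8 positive, where Crym was at -0.83. The mean of this list was lower on TrspFF replicate 1 than on Trsp-Ins1KO replicate 1, while Crym was higher there. The part of these markers in the result for Crym was not tested.

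**Figure D2:**
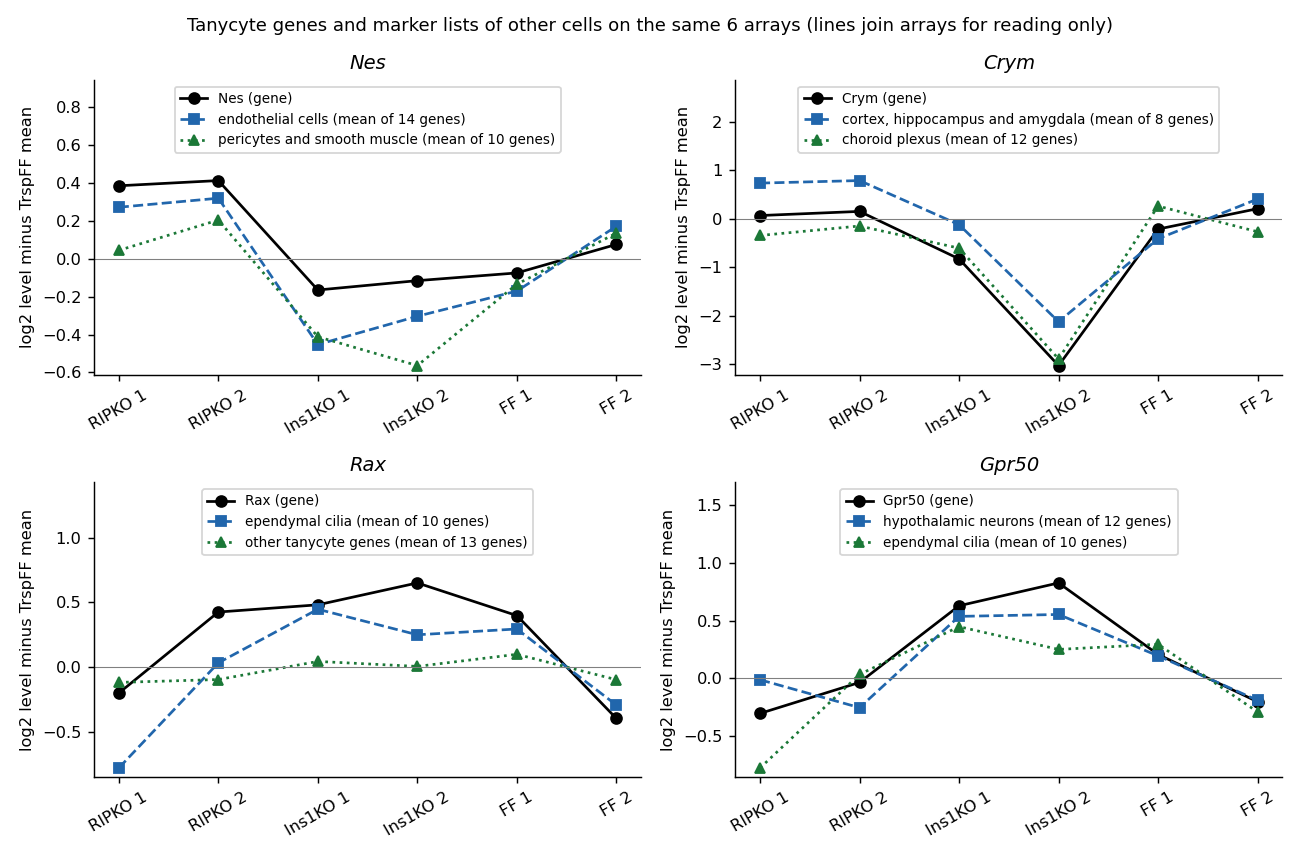
Levels of Nes, Crym, Rax and Gpr50 on each array (log2, minus the mean of the 2 TrspFF arrays) together with the mean of marker lists, which were paired with the genes after their values were seen. Nes lies highest on the Trsp-RIPKO arrays together with the endothelial list, Crym is lowest at -3.03 on Trsp-Ins1KO replicate 2 together with the cortex and choroid plexus lists, and lines only join the 6 arrays for reading.

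The genes with the most similar profile were taken as the 3 with the highest Pearson r over the 6 arrays, among named genes well above background on all arrays and with a range between 0.5 and 2 times that of the tanycyte gene. With so few arrays, which share slide, scan and scaling, very high values are common, and they are given as a description. For Rax these were Nuf2 (r = 0.993), Krt71 (0.982) and Wdr54 (0.981), and 70 of 5465 candidates exceeded 0.9. For Gpr50 they were Slc35g2 (0.994), Procr (0.994) and Insyn2b (0.993), with 242 of 4835 above 0.9. For Nes they were Cep250 (0.990), Col2a1 (0.989) and Ggcx (0.988), with 274 of 9968. For Vim they were Stk38 (0.975), Prx (0.959) and Fam43a (0.947), with 20 of 9945. For Crym they were Rgs14 (0.996), Rin1 (0.993) and Prdm8 (0.988), with 88 of 519. None of these 15 genes is a tanycyte gene of the lists used here, and Rgs14, a regulator of G protein signalling in the hippocampus, followed Crym down to -1.45 on Trsp-Ins1KO replicate 2, where its other levels lay between 0.12 and 0.75.

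**Figure D3:**
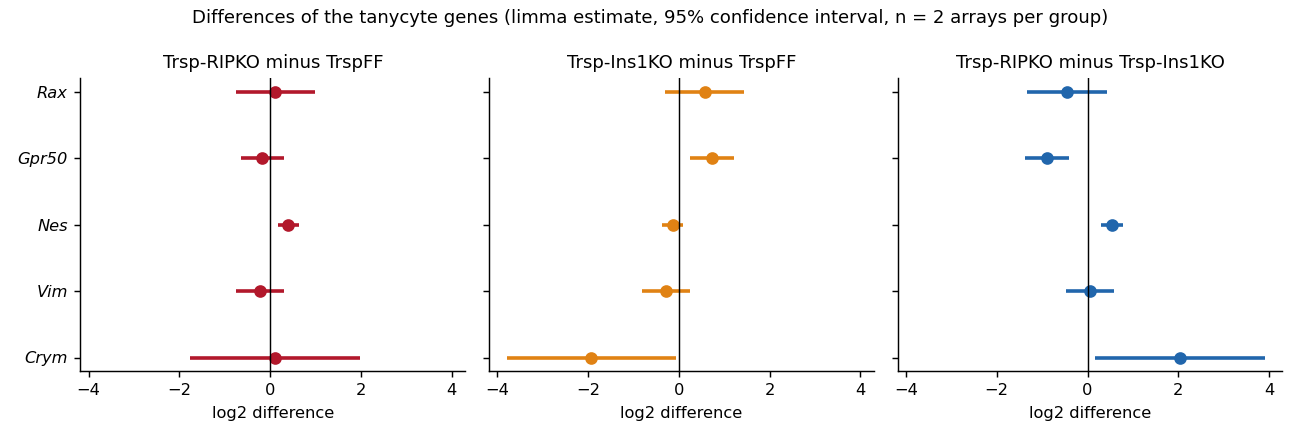
Log2 difference of each tanycyte gene with its 95% confidence interval in Trsp-RIPKO minus TrspFF, Trsp-Ins1KO minus TrspFF and Trsp-RIPKO minus Trsp-Ins1KO (limma, n = 2 arrays per group). The interval of Nes is the narrowest and that of Crym the widest, from -3.80 to -0.054 in Trsp-Ins1KO minus TrspFF. Gpr50 passed the filter on faint probes only through Trsp-Ins1KO, where it is highest. Its intervals in the comparisons with that group are therefore a description and not a test.

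Further genes of tanycytes were examined as a list of 15. Scn7a and Fndc3c1, both found in tanycytes of the median eminence, were not well above background on both arrays of any group and were not tested, which left 13. Of these 0 passed the test in any of the 3 comparisons, and 4, 6 and 5 of 13 had positive differences. Unadjusted p-values under 0.05 (limma) were reached by 3, 3 and 5 of 13, against 23.9%, 26.0% and 18.4% of all genes. The median was -0.28 in Trsp-RIPKO minus TrspFF, -0.0053 in Trsp-Ins1KO minus TrspFF and -0.15 in Trsp-RIPKO minus Trsp-Ins1KO. The mean level of the 13 lay between -1.40 and -1.38 in Trsp-RIPKO, between -1.28 and -1.24 in Trsp-Ins1KO and between -1.38 and -1.19 in TrspFF, so that the groups lay close together.

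Within this list Ptn, which encodes the growth factor pleiotrophin, had the smallest p. Its levels were 2.59 and 2.31 in Trsp-RIPKO, 2.52 and 2.17 in Trsp-Ins1KO, and 3.112 and 3.103 in TrspFF. All 4 knockout arrays lay below both TrspFF arrays, with differences of -0.66 (SE 0.16, limma adjusted p = 0.114) and -0.76 (SE 0.16, limma adjusted p = 0.0891) for Trsp-RIPKO and Trsp-Ins1KO minus TrspFF. The 2 comparisons share their control arrays, and slide and genotype cannot be told apart in them. Taken singly, Trsp-RIPKO did not overlap TrspFF for 58.3% of all tested genes and Trsp-Ins1KO did not for 58.2%. Ppp1r1b, which encodes the phosphatase inhibitor DARPP-32 of tanycytes and striatal neurons, was at -0.82 in Trsp-Ins1KO minus TrspFF (SE 0.19, limma adjusted p = 0.0950). In Trsp-RIPKO minus TrspFF it was at -0.43 (SE 0.19, limma adjusted p = 0.243). Its levels were 1.70 and 2.02 in Trsp-RIPKO, 1.53 and 1.41 in Trsp-Ins1KO, and 2.08 and 2.50 in TrspFF. The mean of the striatum markers was also lower on all 4 knockout arrays than on both TrspFF arrays, and their part was not tested.

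Tanycytes handle thyroid hormone and retinoids, and a list of 13 such genes had 12 tested, Dio3 being too faint. Again 0 passed the test in any comparison. An unadjusted p under 0.05 (limma) was reached by 1, 6 and 5 of 12, against 23.9%, 26.0% and 18.4% of all genes. In Trsp-RIPKO minus Trsp-Ins1KO 9 of 12 differences were positive, with a median of 0.62, and 0.49 without Trsp-Ins1KO replicate 2. The median was 0.24 with 7 positive in Trsp-RIPKO minus TrspFF, and -0.39 with 2 positive in Trsp-Ins1KO minus TrspFF. Between the knockouts the medians of endothelial, pericyte and smooth muscle, and choroid plexus markers were 0.73, 0.62 and 1.81 (0.74, 0.50 and 0.43 without Trsp-Ins1KO replicate 2), and their part in the values of this list was not tested. Dio2, the selenoprotein that activates thyroid hormone in tanycytes and astrocytes, had levels of 1.08 and 1.38 in Trsp-RIPKO, 0.61 and 0.81 in Trsp-Ins1KO, and 0.86 and 1.09 in TrspFF, and differed by 0.52 between the knockouts (SE 0.16, limma adjusted p = 0.263). The Trsp-RIPKO arrays of Dio2 did not overlap those of Trsp-Ins1KO, as held for 58.6% of all tested genes in that comparison.

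The thyroid hormone transporter Slco1c1, which tanycytes share with brain endothelium, was at 1.12 (SE 0.28) in Trsp-RIPKO minus Trsp-Ins1KO (limma adjusted p = 0.263). Trhde, the enzyme that degrades thyrotropin-releasing hormone, was at 0.97 (SE 0.22, limma adjusted p = 0.263). Its levels were -1.82 on both Trsp-RIPKO arrays, -2.55 and -3.02 in Trsp-Ins1KO, and -2.64 and -2.17 in TrspFF. Stra6, a retinol transporter, had levels of -2.80 and -2.71 in Trsp-RIPKO, -3.33 and -5.28 in Trsp-Ins1KO, and -2.44 and -2.74 in TrspFF. As for Crym, the lowest array was Trsp-Ins1KO replicate 2.

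**Figure D4:**
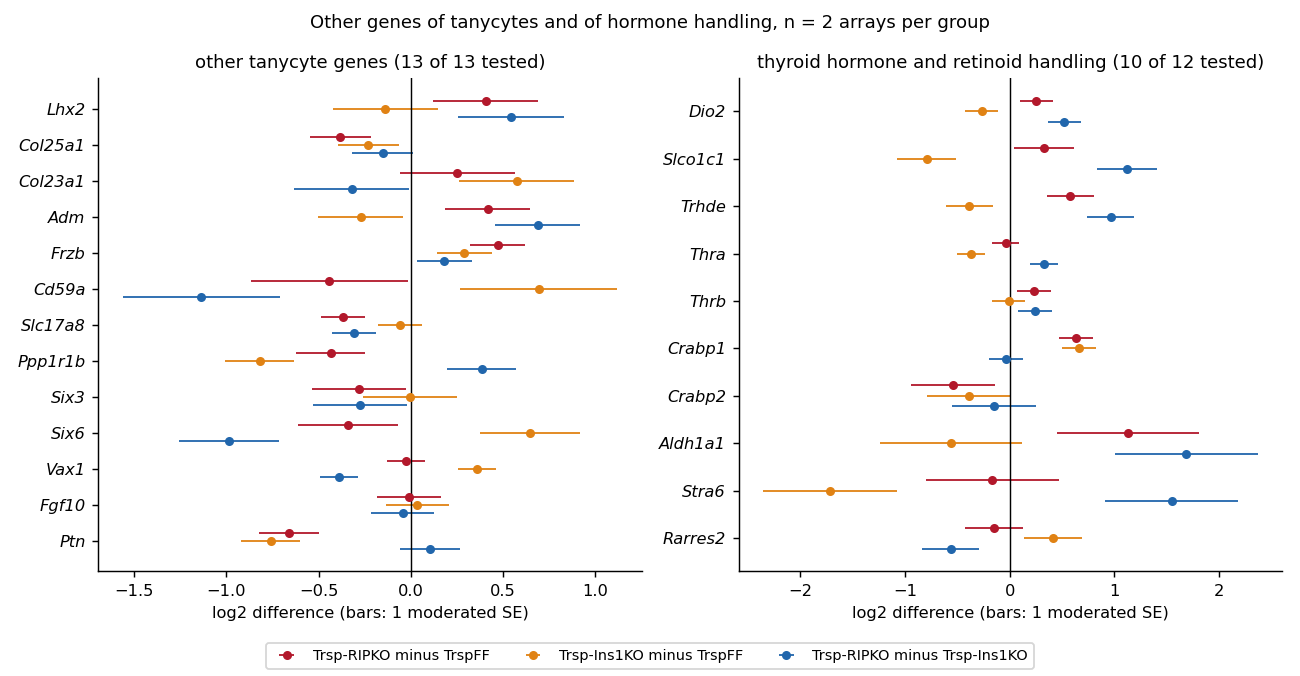
Log2 differences of 13 other tanycyte genes and 10 of the 12 tested genes of thyroid hormone and retinoid handling in the 3 comparisons (points: limma estimates, bars: 1 moderated SE, n = 2 arrays per group). Ptn lies below 0 against TrspFF in both knockouts, and the transporter Slco1c1 lies above 0 in Trsp-RIPKO minus Trsp-Ins1KO.

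Nestin and vimentin belong to the intermediate filaments, of which 11 of 12 further members and partners were tested (Des was too faint). None passed the test, and the medians lay at 0.072, 0.021 and -0.033 in the 3 comparisons. There 4, 2 and 1 of 11 had an unadjusted p under 0.05 (limma), against 23.9%, 26.0% and 18.4% of all genes. Synm, which encodes synemin, a partner of vimentin and nestin in mixed filaments, came closest. Its levels were 0.10 and -0.081 in Trsp-RIPKO, 0.025 and 0.063 in Trsp-Ins1KO, and 0.86 and 0.71 in TrspFF, so that all 4 knockout arrays lay below both TrspFF arrays. The differences were -0.77 (SE 0.11, limma adjusted p = 0.0529) and -0.74 (SE 0.11, limma adjusted p = 0.0552) against TrspFF, which share their control arrays and in which slide and genotype cannot be told apart. Each knockout taken singly did not overlap TrspFF for 58.3% (Trsp-RIPKO) and 58.2% (Trsp-Ins1KO) of all tested genes. Gfap, the filament protein of astrocytes and of some tanycytes, was at -0.21 in Trsp-RIPKO minus TrspFF and 0.021 in Trsp-Ins1KO minus TrspFF (limma adjusted p = 0.491 and 0.951).

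Of the 16 lists set beside the tanycyte genes, 15 had no gene past the test in any comparison. The exception was the striatum list of 9 genes, in which 1 gene fell in Trsp-RIPKO against TrspFF, the receptor gene Gpr6 (-0.78, SE 0.078, limma adjusted p = 0.0294), and 2 fell in Trsp-Ins1KO against TrspFF, Gpr6 and the adenosine receptor gene Adora2a (-2.41, SE 0.29, limma adjusted p = 0.0375). Astrocyte markers, which share many transcripts with tanycytes, had medians of -0.083, 0.16 and -0.22 in the 3 comparisons and 0 genes past the test. Only 4 of 10 pituitary markers were tested, and Gh, Prl and Tshb were not well above background on both arrays of any group. The mean of the 4 was -3.51 on TrspFF replicate 1, -4.69 on TrspFF replicate 2 and lower on every knockout array. All 4 were well above background on both TrspFF arrays but only 3 on each knockout array, so these means are a description. In each knockout 2 of the 4 differences from TrspFF were positive, with medians of -0.19 (Trsp-RIPKO) and -0.028 (Trsp-Ins1KO).

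**Figure D5:**
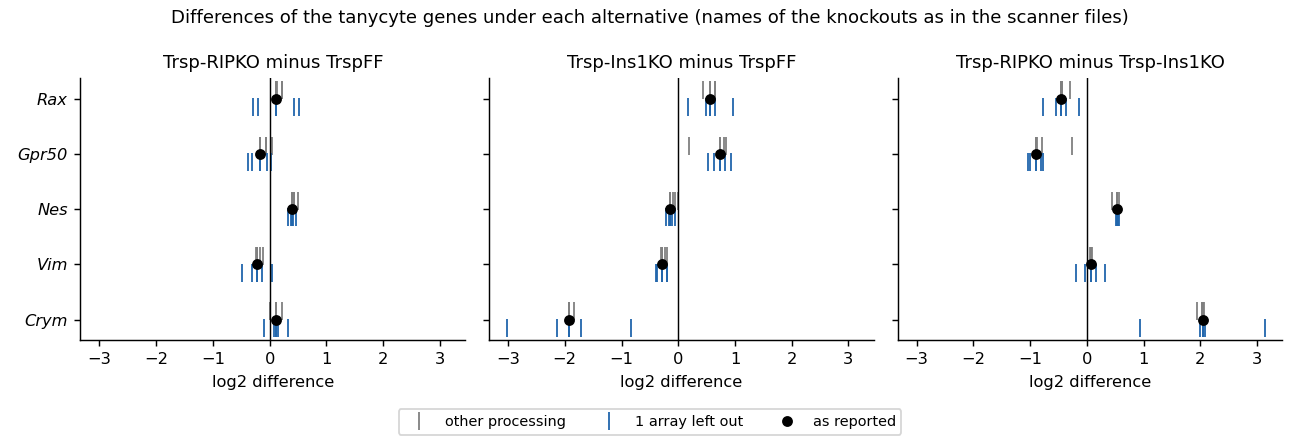
Log2 difference of each tanycyte gene as reported (black points), under other processing (grey marks) and with 1 array left out (blue marks), in the 3 comparisons. Names of the knockouts are those of the scanner files throughout; with them Nes keeps its side of 0 in all 3 panels, Rax, Gpr50, Vim and Crym lie on both sides of 0 in Trsp-RIPKO minus TrspFF, and Crym in Trsp-Ins1KO minus TrspFF runs from -3.03 to -0.83 with 1 array left out.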

How the data were processed

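The authors deposited 1 scanner file per array, made with Agilent Feature Extraction 10.7.3.1 (mm9 annotation) per the file headers, with a background-subtracted intensity per spot. Their deposited value table holds log2 values in which every probe has a median of 0 over the arrays, with scaling that matches the scanner signals (direction the same, level of each probe removed). The 43020 spots that are not controls gave 39429 probes, as means of the linear signal of unflagged spots; 118 probes had no unflagged spot on at least 1 array and were dropped. Signals were divided by the 75th percentile of the array before log2. Probes had to be well above background on both arrays of any group (28065 passed). Symbols came from transcript accessions and a RefSeq table of GRCm38.p6 (66.1% of probes matched). The brightest kept probe stood for a gene, or an accession where no symbol matched. limma 3.58.1 in R 4.3.3 fitted 22863 genes over all 6 arrays (lmFit, eBayes; median 4.87 degrees of freedom; two-sided; 95% intervals from the moderated standard error), with jsonlite 2.0.0 for reading, and was tested on simulated data. Tanycyte genes, the 16 marker lists and the alternatives were chosen with earlier results of these data known. Genes named are the 5 tanycyte genes, up to 4 genes past the threshold or otherwise 2 of smallest p per list where a result turns on them, and the 3 most similar profiles; Dio2, Slco1c1, Stra6, Gfap and the untested genes were named after their values were seen. Alternatives were normexp with an offset of 50 on median signals, quantile and median scaling, the value table, the names of the value table, other filters, the mean of probes, trend and robust variances, 2 groups only, a replicate block and leaving out each array. The gene table held 0 entries named Trsp, so the deletion was not checked. Values of some genes are not reported here.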

Additional observations from a re-analysis of the deposited data

Results flagged for a closer look

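Nes differed between the knockouts in direction against TrspFF: both Trsp-RIPKO arrays lay above and both Trsp-Ins1KO arrays below the 2 TrspFF arrays. The difference itself, Trsp-RIPKO minus Trsp-Ins1KO, was 0.54 (log2) and did not pass the test (limma adjusted p = 0.263), and 1.65% of tested genes showed the same order of arrays. Endothelial markers had the same order of group means. So had the lists of pericytes and smooth muscle, of cortex, hippocampus and amygdala, and of thyroid hormone and retinoid handling. The part of these lists in the result for Nes was not tested.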

How the results depend on the processing

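With 2 arrays per group the depth of replication limits every value here, and the faint signal of Gpr50 limits that gene. Of the 5 tanycyte genes 0 passed in each comparison under every alternative that kept both arrays of the groups compared. Leaving out Trsp-Ins1KO replicate 1 left only replicate 2 in that group. The difference of Crym was then -3.03 in Trsp-Ins1KO minus TrspFF and 3.14 in Trsp-RIPKO minus Trsp-Ins1KO. The array left alone in its group is then assumed to vary like the other groups. Over all settings the calls among all genes ranged from 0 to 784 (Trsp-RIPKO minus TrspFF), 0 to 1240 (Trsp-Ins1KO minus TrspFF) and 0 to 319 (Trsp-RIPKO minus Trsp-Ins1KO). The replicate block left the differences as they were (Nes 0.40, -0.14 and 0.54) and called 0 of all genes. Arrays of the same number did not deviate together (correlations of -0.0251, 0.0893 and -0.0219 between the groups). No pairing by number was seen, but with 2 arrays per group this cannot exclude one. Median scaling moved the median of all genes to 0.09 and 0.11 against TrspFF, from -0.014 and 0.024.

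With the knockout names of the value table, Trsp-RIPKO minus TrspFF became -1.93 for Crym, 0.73 for Gpr50 and -0.14 for Nes (median -0.14), Trsp-Ins1KO minus TrspFF became 0.11 for Crym, -0.17 for Gpr50 and 0.40 for Nes (median 0.11), and Trsp-RIPKO minus Trsp-Ins1KO became -2.04, 0.90, -0.54, 0.45 and -0.064 for Crym, Gpr50, Nes, Rax and Vim (median -0.064); this follows from the exchange itself. Quantile normalization turned Gpr50 to 0.046 in Trsp-RIPKO minus TrspFF. The median of the 5 genes was -0.0059 with normexp in Trsp-Ins1KO minus TrspFF, and 0.30 in Trsp-RIPKO minus Trsp-Ins1KO when all 6 arrays had to be well above background, since Gpr50 then left the list. Leaving out 1 array moved the medians between -0.29 and 0.15 (Trsp-RIPKO minus TrspFF), -0.20 and -0.07 (Trsp-Ins1KO minus TrspFF) and -0.20 and 0.33 (Trsp-RIPKO minus Trsp-Ins1KO). It turned the sign in Trsp-RIPKO minus TrspFF for Crym (-0.099 to 0.32), Gpr50 (-0.38 to 0.033), Rax (-0.29 to 0.51) and Vim (-0.49 to 0.036), and in Trsp-RIPKO minus Trsp-Ins1KO for Vim (-0.20 to 0.33). Beyond the exchange of names and fewer arrays or genes, the cause was not tested.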
